A study of Mus musculus with 23 samples.

Results

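Pericytes, the mural cells of brain capillaries, were taken from a single-cell RNA-seq experiment on mouse brain cells sorted by how much intravenously dosed antibody they carried. A barcode was called a pericyte by a marker rule that used the measured counts: at least 500 genes, at least 800 unique molecular identifiers (UMIs, each a counted RNA molecule), at most 10% mitochondrial UMIs, a UMI of at least 4 of 8 pericyte genes (Vtn, Kcnj8, Abcc9, Ndufa4l2, Higd1b, Atp13a5, Art3 and Cox4i2), and more UMIs of these 8 than of 9 genes of other cells. The 9 genes were Acta2 and Myh11 of smooth muscle, Cldn5 and Flt1 of endothelium, Aqp4 and Gja1 of astrocytes, Cx3cr1 and P2ry12 of microglia, and Mog of oligodendrocytes. Of 249715 barcodes that passed the filters, 6678 met the rule, which is 2.67%. ATV-TfR animals gave 3728 of them, ATV-CD98hc animals 2212 and control IgG animals 738.

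Pericytes sit inside the capillary basement membrane and wrap the endothelial tube. Endothelial Pdgfb acting on pericyte Pdgfrb keeps them on the vessel, and their presence limits transcytosis across the blood-brain barrier. The potassium channel made of Kcnj8 and Abcc9 links pericyte membrane potential to metabolic state, and endothelin receptors and guanylate cyclase set their tone. The antibody transport vehicles of the experiment bind receptors of the brain endothelium: TfR (encoded by Tfrc), which carries iron-loaded transferrin into cells, and CD98hc (encoded by Slc3a2), the heavy chain that pairs with amino acid transporters such as Slc7a5.

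The 3 treatments were a human IgG1 carrying the LALAPG mutations in its Fc, labelled with Alexa647, in 3 forms: ATV-TfR in TfR mu/hu knock-in mice, monovalent ATV-CD98hc (LLB2-10-8) in CD98hc mu/hu knock-in mice, and an unmodified control IgG in C57BL/6 mice. Each knock-in strain received its own antibody, so treatment and genotype cannot be told apart. Mice of 12 weeks (3.3 months in the sample labels) received 45 mg/kg into the tail vein and were perfused 24 h later. Olfactory bulb, cerebellum, pons and medulla were cut away, inhibitors of transcription and translation were present during dissociation, and sucrose removed the myelin. Cells of 1 male and 1 female were pooled, and each treatment had 2 pools. Each pool was sorted by Alexa647 signal into a negative bin and bins of low, medium and high signal. About 30%, 20% and 1% of live cells were positive after ATV-TfR, ATV-CD98hc and control IgG. The positive bins were set as tertiles of the ATV-TfR signal and used for all treatments, so a bin name stands for the same signal range but not the same share of cells.

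The 23 libraries (8 of ATV-TfR, 8 of ATV-CD98hc and 7 of control IgG, whose negative bin is represented by pool 2) held 1861238 to 90307818 UMIs and 526 to 20570 filtered barcodes each. The control IgG medium and high bins were the smallest libraries. Pericytes had a median of 3253 UMIs (801 to 31796) and 1934 genes. Among pericytes, 6 barcode sequences occurred in more than 1 library, and 6.33% of pericytes had a sequence found as a filtered barcode in another library, against 6.14% of all filtered barcodes. Scrublet, which scores barcodes against simulated doublets, marked 8.89% of pericytes as possible doublets. They were kept, and results without them are given for part of the comparisons.

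The label was checked against pericyte genes that the rule did not use. Of the 6678 pericytes, 4024 had UMIs of all 8 rule genes and 165 of exactly 4. Members with 4 of 8 had a median of 21 summed UMIs of the 8 genes, and the 168 barcodes left outside with 3 of 8 had 15. A further 3285 barcodes had at least 4 of the 8 genes but not more of them than of the 9 others; 2598 of these met an endothelial rule and 565 a smooth muscle rule. Pdgfrb, the receptor for endothelial Pdgfb, was detected in 97.6% of negative-bin pericytes with little endothelial RNA (3037 cells, defined below), against 1.47% of microglia, which lack the gene. The proteoglycan gene Cspg4 (NG2) was detected in 82.5% and 0.511%. Smooth muscle cells, the other mural cells, had a UMI of Pdgfrb in 76.9% and of Cspg4 in 85.0%, so these shares set pericytes apart from microglia and not from smooth muscle. Other pericyte genes outside the rule varied. Anpep, Ggt1 and Pla1a were detected in 38.8%, 50.6% and 48.1% of these pericytes and 2.12%, 1.49% and 1.54% of smooth muscle cells. Tbx18 was detected in 30.2% and 48.0%. Slc6a12, Colec11 and Cyp4b1 were detected in only 2.83%, 0.428% and 0.165% of these pericytes. Median depth was 2721 UMIs in these pericytes, 3243 in microglia and 5224.5 in smooth muscle cells.

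The rule genes with the steepest separation from all other cell classes were Kcnj8, Abcc9 and Atp13a5, so their RefSeq promoters are shown (GRCm38.p6, from 250 bases before to 50 after the annotated start, each on the minus strand, read 5′ to 3′ along the gene). Capitals mark matches to 3 motifs searched on both strands: TAAACA (forkhead), TCACAC (T-box) and CTAAAAATA (MEF2).
Kcnj8, chr6:142571565-142571864: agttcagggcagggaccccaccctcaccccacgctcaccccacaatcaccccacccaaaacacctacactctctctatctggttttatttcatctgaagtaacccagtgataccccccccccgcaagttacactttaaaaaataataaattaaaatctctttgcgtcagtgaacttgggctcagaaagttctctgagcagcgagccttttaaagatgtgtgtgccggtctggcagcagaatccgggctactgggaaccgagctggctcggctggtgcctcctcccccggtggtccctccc
Abcc9, chr6:142702225-142702524: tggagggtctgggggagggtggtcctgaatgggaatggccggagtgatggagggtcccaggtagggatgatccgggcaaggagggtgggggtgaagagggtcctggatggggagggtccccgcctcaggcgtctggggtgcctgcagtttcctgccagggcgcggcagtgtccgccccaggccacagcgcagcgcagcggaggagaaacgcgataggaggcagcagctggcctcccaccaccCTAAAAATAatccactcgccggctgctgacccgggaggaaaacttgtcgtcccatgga
Atp13a5, chr16:29378683-29378982: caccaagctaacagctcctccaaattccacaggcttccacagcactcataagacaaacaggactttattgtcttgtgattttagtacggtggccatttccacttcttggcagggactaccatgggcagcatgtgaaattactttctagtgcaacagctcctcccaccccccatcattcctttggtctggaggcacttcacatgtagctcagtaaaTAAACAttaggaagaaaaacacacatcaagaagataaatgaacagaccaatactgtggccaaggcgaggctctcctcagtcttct
The Abcc9 window holds CTAAAAATA at bases 243 to 251, and the Atp13a5 window holds TAAACA at bases 216 to 221, counted from the first base shown. None of the 3 motifs occurs in the Kcnj8 window. Among 32544 windows of the same length, 0.516% hold CTAAAAATA, 13.4% TAAACA and 14.3% TCACAC. The starts of Kcnj8 and Abcc9, the pore and regulatory subunits of the same channel, lie 130660 bases apart on chromosome 6.

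In the 5 negative-bin libraries the pericyte profile was read in CPM, the UMIs of a gene scaled to a fixed UMI total per library, in pericytes with little endothelial RNA (mean ± SD over the 5 libraries) and beside the next highest of 9 other marker-rule cell classes. These are descriptions, since the cells were chosen by expression. The 9 classes held no neurons, so levels in neurons were not compared. Kcnj8 stood at 1189 ± 245 CPM and Abcc9 at 1179.9 ± 119, where the next class held 22.1 CPM of Kcnj8. Pdgfrb stood at 1622 ± 54.1 CPM and Rgs5, a regulator of G protein signalling in mural cells, at 4842 ± 294, against 347 and 1309 in smooth muscle. Notch3, the mural Notch receptor, and Cspg4 were shared more widely with smooth muscle: 942 ± 41.2 and 666 ± 47.7 CPM in pericytes, 729.8 and 452 in smooth muscle. Mcam was lower in pericytes (273 ± 39.0 CPM) than in smooth muscle (815).

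Signalling and contractile genes were also set beside smooth muscle, and some were at similar levels in both classes. The UDP-glucose receptor P2ry14 had 822 ± 113 CPM against 105 in the next class. The endothelin receptor Ednra was close in both mural classes, 310.0 ± 33.2 CPM in pericytes and 265 in smooth muscle. The actin-binding smooth muscle gene Tagln had 175 ± 66.8 CPM in pericytes and 12641 in smooth muscle, and Cnn1 1.39 ± 1.16 and 286. Both genes are part of the marker rule of the smooth muscle class, so these differences follow from that rule. Cald1, which also binds actin, was at similar levels, 3315 ± 156 and 3077 CPM.

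Outside the rule, genes with a large ratio of pericytes (all negative-bin members summed) to the next class were Saa2 and Saa1, acute-phase serum amyloid A proteins, Nts, the neuropeptide neurotensin, and Nodal, a ligand of the TGF-beta superfamily. The ratios were 68.1 for Saa2 (88.1 CPM), 48.0 for Nts (157), 46.7 for Nodal (229.6) and 43.1 for Saa1 (85.6). Saa1 and Saa2 are near-identical copies, so their split is uncertain. A UMI of Saa1 was found in 20.1% of negative-bin pericytes with little endothelial RNA against 0.0319% of microglia, of Nts in 20.2% against 0.0479% and of Nodal in 46.1% against 0.0798%. All 3 shares were above the microglial background of free RNA.

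Pericytes were most frequent in the negative bins. Their share of filtered barcodes was 12.2 and 10.7% in the 2 ATV-TfR pools, 5.92 and 8.88% in the ATV-CD98hc pools and 5.59% in control IgG pool 2 (exact 95% binomial interval 5.19 to 6.01%; intervals and limits cover counting error only). In ATV-TfR it was 0.749 and 0.582% in the low bin, 1.12 and 1.27% in the medium bin and 4.12 and 2.92% in the high bin. The low and medium bins lay below the high bin in both pools, and all positive bins lay below the negative bin. In ATV-CD98hc the share was 0.609 and 0.776% (low), 1.53 and 2.60% (medium) and 1.18 and 2.35% (high), with medium and high overlapping. In control IgG it was 0.935 and 0.724% (low), 0.145 and 0.749% (medium) and 0.380% and no barcode (high), where a count of 0 allows up to 0.414% (3 counts of the total).

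**Figure D1:**
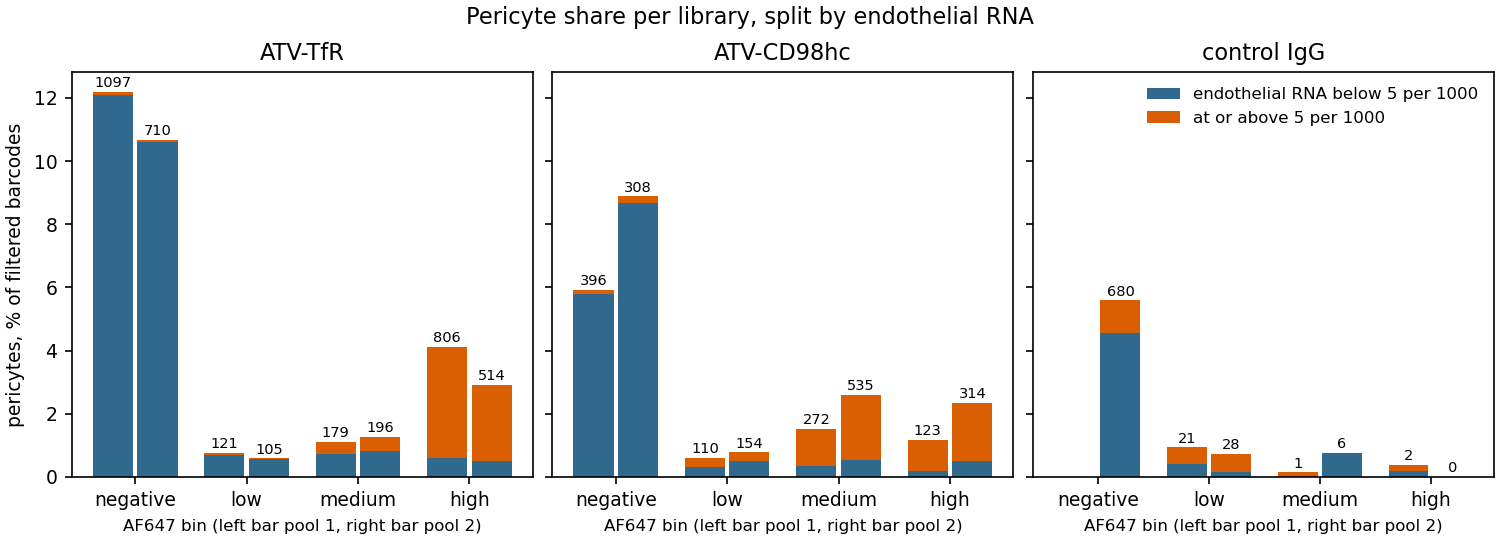
Pericytes as a percent of filtered barcodes in each library, by Alexa647 bin and treatment. Each bar is 1 pool with its number of pericytes above it, split into barcodes with under 5 (blue) and with 5 or more (orange) endothelial UMIs per 1000, a split described below. The negative bins lie at 5.59 to 12.2% and every positive bin of the 2 ATVs at 0.582 to 4.12%.

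Pericyte number per library, tested with edgeR's quasi-likelihood test with the filtered barcodes as offset (Benjamini-Hochberg over the 10 marker-rule cell classes of each contrast), was lower in every positive bin than in the negative bin. The log2 change in ATV-TfR was -4.10 ± 0.45 (SE) in the low bin, -3.26 ± 0.43 in the medium bin and -1.70 ± 0.40 in the high bin (adjusted p = 1.2e-07, 5.6e-07 and 0.0005). In ATV-CD98hc it was -3.41 ± 0.43, -1.84 ± 0.40 and -2.06 ± 0.41 (adjusted p = 6.6e-07, 0.00034 and 0.00012), and in control IgG -2.77 ± 0.51, -3.58 ± 0.66 and -5.10 ± 0.84 (adjusted p = 4.5e-05, 4.5e-05 and 1.4e-05). The control IgG negative bin is 1 library, whose spread is taken from the other groups. A straight trend of the logit share over the 4 bins was not detected in either ATV (-0.32 and -0.35 per bin, exact permutation test, two-sided, adjusted p = 0.42 for both), and in control IgG it was -1.04 per bin and did not pass (adjusted p = 0.062). In the high bin the ATV-TfR share was above the ATV-CD98hc share by 0.99 ± 0.40 (adjusted p = 0.032). Without ATV-TfR pool 1 or 2 or without ATV-CD98hc pool 1 the difference was 0.72, 1.22 and 0.58 and did not pass (adjusted p = 0.33, 0.088 and 0.27). The changes from the negative bin kept their direction and passed without any 1 pool in the ATVs, and in control IgG without any ATV pool or its own pool 1. Without pool 2 control IgG has no negative bin.

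Shares within a bin also depend on the other cells there. Endothelial cells made up 90.6 and 93.2% of the ATV-TfR high-bin barcodes and 92.1 and 93.1% of the ATV-CD98hc high-bin barcodes, against 1.23 to 1.67% in the 4 ATV negative bins. Among barcodes that were not endothelial, pericytes were 44.0 and 43.1% of the ATV-TfR high bin and 14.9 and 33.8% of the ATV-CD98hc high bin. On that denominator the direction turned: pericytes were higher in the high bin than in the negative bin by 1.91 ± 0.42 in ATV-TfR and 1.70 ± 0.42 in ATV-CD98hc (adjusted p = 0.00032 and 0.0012). Smooth muscle cells, the other mural class, were 8.02 and 8.23% and 4.10 and 4.33% of barcodes in the ATV negative bins and 0.0256 to 0.0575% in the ATV high bins. Their number per filtered barcode changed from the negative to the high bin by -8.18 and -6.35 (log2) in ATV-TfR and ATV-CD98hc (adjusted p = 9.9e-12 and 2.5e-10).

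A large part of the pericytes in the positive bins carried endothelial RNA. It was measured as the UMIs of 20 endothelial genes per 1000 UMIs of a barcode. Of the 6678 pericytes, 4133 had under 5 (median 1.30) and 2545 (38.1%) had 5 or more (median 29.5), where endothelial cells had a median of 53.3. The limit of 5 was chosen after the data were seen, and 2.13% of pericytes lay within 1 of it. Barcodes above the limit had a median of 5685 UMIs and those below it 2645.

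The share of pericytes at or above the limit was higher in the positive bins of both ATVs than in their negative bins. It was 0.912 and 0.563% in the ATV-TfR negative bin, 6.61 and 4.76% in the low, 34.1 and 36.2% in the medium and 85.4 and 82.3% in the high bin. In ATV-CD98hc it was 2.02 and 2.27%, 47.3 and 37.0%, 77.6 and 79.6% and 85.4 and 79.0%. No low-bin pool reached a high-bin pool in either treatment, and in ATV-CD98hc the medium and high bins overlapped. In control IgG it was 18.4% in the negative bin and 57.1 and 78.6% in the low bin. In the medium bin it was 1 of 1 pericyte in pool 1 and 0 of 6 in pool 2. Microglia of the same libraries had medians of 0 to 1.31 endothelial UMIs per 1000. UMIs of both Xist and a Y-linked gene, which a barcode holding cells of both mice of a pool can show, were found in 8.57% of pericytes at or above the limit and 4.65% of those below it. Scrublet marks went the other way, 6.84% at or above the limit and 10.2% below it. Median depth was 5685 UMIs at or above the limit and 2645 below it, and neither share was adjusted for depth. The source of the endothelial RNA was not tested.

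**Figure D2:**
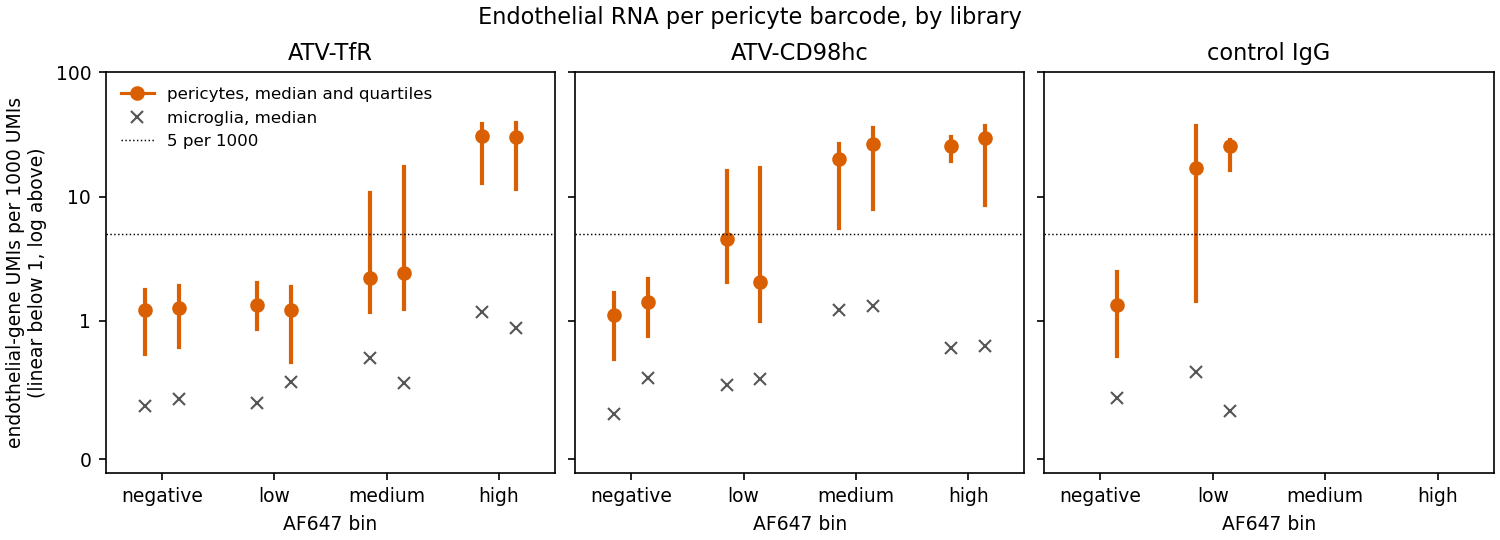
Endothelial UMIs per 1000 UMIs (linear below 1, log above) by bin and treatment in each library with at least 20 pericytes. Circles and lines are the median and quartiles of pericytes, crosses the median of microglia, and the dotted line the limit of 5. Of negative-bin pericytes, 0.563 to 18.4% lie at or above the limit, and the medians of all 4 ATV high bins lie above it.

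Pericytes with little endothelial RNA made up 12.1 and 10.6% of barcodes in the ATV-TfR negative bin and 0.700 and 0.554%, 0.736 and 0.809% and 0.604 and 0.517% in its low, medium and high bins. In ATV-CD98hc they made up 5.80 and 8.68%, then 0.321 and 0.489%, 0.343 and 0.530% and 0.173 and 0.494%. In both treatments the high bin overlapped the low bin. Their number fell from the negative to the high bin by 4.34 ± 0.51 on the log2 scale in ATV-TfR and by 4.41 ± 0.53 in ATV-CD98hc (adjusted p = 1.4e-07 and 2.8e-07), and the 2 falls did not differ detectably (difference 0.07 ± 0.65, adjusted p = 1). The trend over the bins passed in both, at -0.91 and -0.97 per bin (exact permutation test, two-sided, adjusted p = 0.032 for both). It takes in the negative bin. The low and high bins overlapped, so the trend does not show a fall from each positive bin to the next. With endothelial cells out of the denominator the trend was -0.12 and -0.0055 per bin and did not pass (adjusted p = 0.99 for both). Among barcodes that were not endothelial, the change from the negative to the high bin was -0.71 ± 0.48 and -0.65 ± 0.50 and did not pass (adjusted p = 0.15 and 0.24).

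Gene expression was compared between bins on counts summed over the pericytes of each library with at least 20 of them (19 libraries, 81308 to 4212879 pericyte UMIs, 11892 genes tested), with edgeR's quasi-likelihood test and Benjamini-Hochberg adjustment at 0.05 over all genes. Against the negative bin of the same treatment, 745 genes were higher and 239 lower in the ATV-TfR low bin, 1077 and 382 in the medium bin and 1423 and 2045 in the high bin. In ATV-CD98hc the counts were 766 and 302, 1014 and 1063, and 1159 and 1555. Without Scrublet doublets ATV-TfR gave 285 and 13, 886 and 122, and 1338 and 1364. ATV-CD98hc then gave 807 and 233, 999 and 593, and 1114 and 929, so the larger direction turned in its medium and high bins. When 3 times more pericyte than other UMIs were asked for, these 2 bins gave 442 and 245, and 402 and 519. Over all pericytes the share called in either direction was 8.27%, 12.3% and 29.2% for ATV-TfR and 8.98%, 17.5% and 22.8% for ATV-CD98hc. Without ATV-TfR pool 1 or 2 the number of genes called fell to 407 and 468 (low), 706 and 752 (medium) and 1494 and 1526 (high) in ATV-TfR, and without ATV-CD98hc pool 1 to 484 in the ATV-CD98hc low bin. The lower genes of ATV-CD98hc numbered 126, 113 and 89 in the low bin without ATV-TfR pool 1 or 2 or ATV-CD98hc pool 1. They numbered 668, 598 and 648 in the medium bin without ATV-TfR pool 1 or 2 or ATV-CD98hc pool 2, and 963 and 1026 in the high bin without ATV-TfR or ATV-CD98hc pool 2. In pericytes with little endothelial RNA the ATV-TfR high bin gave 25 higher and 223 lower (0.270% and 2.41%, in all 2.68% of 9249 genes) and the ATV-CD98hc high bin 26 and 69 (0.281% and 0.746%, in all 1.03%). Without ATV-TfR pool 1 the first gave 69 calls in place of 248, and without ATV-TfR pool 1 or 2 the second gave 189 and 174 in place of 95. The ATV-CD98hc comparison rests on 1 high-bin library, pool 2 with 66 such pericytes, whose spread is taken from the other groups.

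Genes of pericyte identity were lower in the high bins when all pericytes were counted. Of 19 tested members of a list of 21 identity genes, 14 were lower and 1 higher in the ATV-TfR high bin, and 14 lower and 1 higher in the ATV-CD98hc high bin. Over all genes tested, 17.2% and 13.1% were lower and 12.0% and 9.75% higher. The median log2 change of the list was -0.68 and -0.73, where that of all genes tested was -0.08 and -0.11. Pdgfrb had 1558 and 1639.7 CPM in the ATV-TfR negative bin and 881 and 1049.9 in the high bin. In ATV-CD98hc it had 1662 and 1601 CPM in the negative bin and 1077 and 959 in the high bin. Its high-bin values lay below the negative-bin values in both treatments, a log2 change of -0.65 ± 0.18 (adjusted p = 0.0071) and -0.67 ± 0.18 (adjusted p = 0.0079). Pdgfrb, Notch3, Cspg4 and Foxf2 each lost the ATV-TfR call without either ATV-TfR pool (adjusted p up to 0.44 for Pdgfrb and 0.26 for Notch3).

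Notch3, the Notch receptor of mural cells, had 890.0 and 946 CPM in the ATV-TfR negative bin and 487 and 508 in the high bin (-0.81 ± 0.19, adjusted p = 0.0017), with no overlap. In ATV-CD98hc it had 1003 and 913 CPM in the negative bin and 587 and 521 in the high bin (-0.78 ± 0.19, adjusted p = 0.0035). Cspg4 changed by -0.70 ± 0.20 and -0.73 ± 0.20 (adjusted p = 0.0088 and 0.01). The aminopeptidase Anpep, the adhesion molecule Mcam, the transporters Slc19a1 and Slc38a11 and the transcription factor Tbx18 were also lower in both. Foxf2, a forkhead factor needed for pericyte development, was higher, by 0.80 ± 0.20 and 0.62 ± 0.22 (adjusted p = 0.0028 and 0.043). Negative-bin endothelial cells held more Foxf2 RNA than pericytes, 108 against 77.5 CPM.

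In pericytes with little endothelial RNA, none of the 18 tested identity genes was called in either high bin by edgeR. Of all genes 0.270% were then higher and 2.41% lower in ATV-TfR, and 0.281% and 0.746% in ATV-CD98hc, so a count of 0 among 18 is near that share. At an unadjusted p under 0.05, 1 was higher and 0 lower in ATV-TfR, and 0 and 0 in ATV-CD98hc. The list's medians were 0.15 and 0.12. Pdgfrb had 1579 and 1650.2 CPM in the ATV-TfR negative bin and 1639.6 and 1962 in the high bin, a change of 0.16 ± 0.19 (adjusted p = 0.92). Notch3 changed by 0.13 ± 0.20 (adjusted p = 0.95) and Cspg4 by 0.26 ± 0.20 (adjusted p = 0.81). All 20 genes of the endothelial list were higher in both high bins over all pericytes (medians 5.34 and 4.66), and their summed level moved from 1623 to 2143 CPM in the 4 ATV negative-bin libraries to 25402 to 31450.4 CPM in the 4 high-bin libraries.

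**Figure D3:**
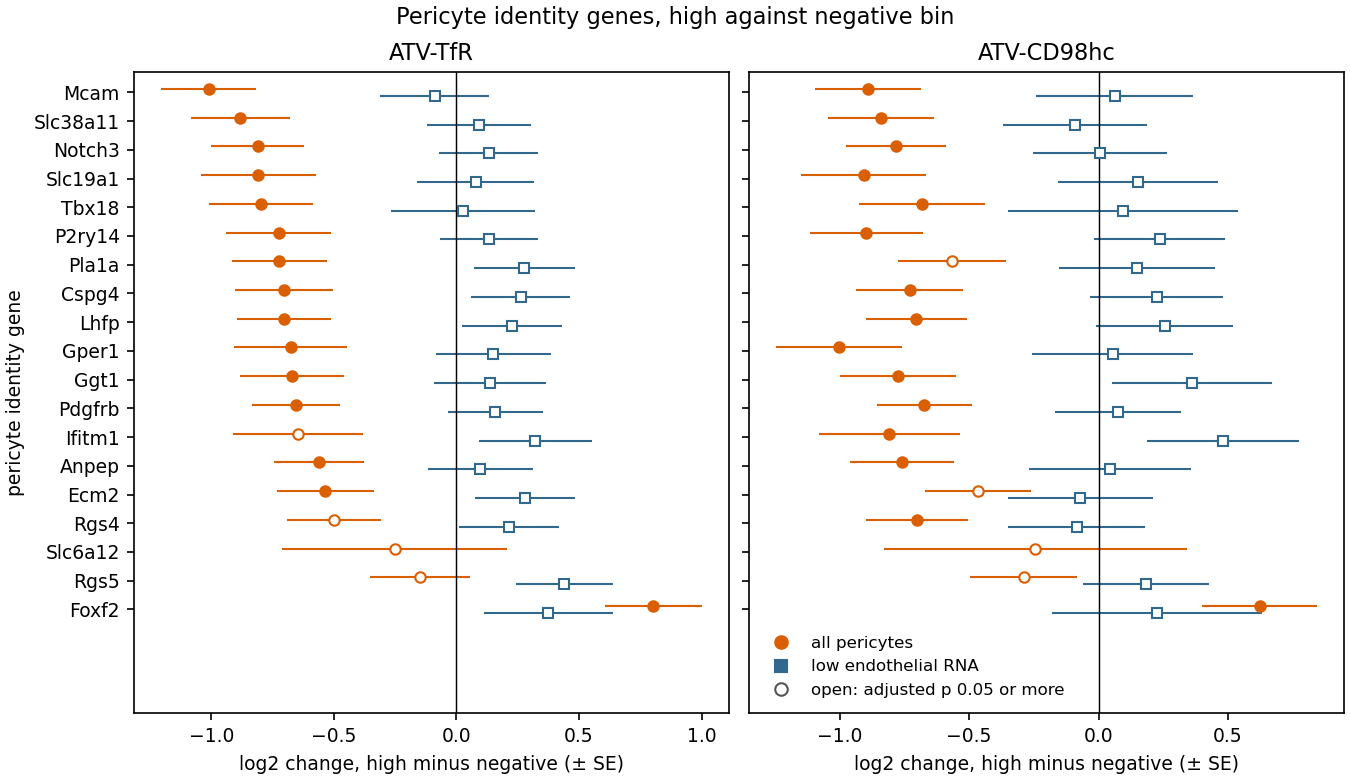
Log2 change (± SE) from the negative to the high bin for the tested identity genes, in all pericytes (orange circles) and in those with little endothelial RNA (blue squares), for ATV-TfR and ATV-CD98hc. Open symbols did not pass at an adjusted p of 0.05; most orange symbols lie below 0 and are filled, and all blue symbols are open.

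Genes that set pericyte tone were also lower in the high bins over all pericytes. Over all genes, 12.0% were higher and 17.2% lower in the ATV-TfR high bin, and 9.75% and 13.1% in ATV-CD98hc. Of 17 tested channels and vasoactive genes, 13 were lower and 2 higher in the ATV-TfR high bin, and 10 and 2 in ATV-CD98hc; in pericytes with little endothelial RNA edgeR called none (0 higher and 0 lower at an unadjusted p under 0.05 in ATV-TfR, 0 and 1 in ATV-CD98hc). Ednra, the receptor for endothelin-1, had 297 and 279 CPM in the ATV-TfR negative bin and 151 and 150.5 in the high bin (-0.86 ± 0.20, adjusted p = 0.0017). P2ry14 had 815 and 848 CPM in the negative bin and 488 and 469 in the high bin (-0.72 ± 0.21, adjusted p = 0.011). Neither overlapped between the bins, and both calls were lost without either ATV-TfR pool (adjusted p up to 0.2 and 0.45). In ATV-CD98hc they changed by -0.92 ± 0.21 and -0.90 ± 0.22 (adjusted p = 0.0019 and 0.0033).

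The shares of all genes given above (12.0% higher and 17.2% lower in ATV-TfR, 9.75% and 13.1% in ATV-CD98hc) are also the background of the lists that follow. Of 14 tested contractile genes, 9 were lower in the ATV-TfR high bin and 10 in the ATV-CD98hc high bin, among them Tagln, Myl9, Tpm2 and Des. The light chain gene Myl6 was higher in ATV-TfR. All 9 tested smooth muscle markers were lower in both high bins; whether smooth muscle RNA took part in the contractile result was not tested. In the PDGF, TGF-beta and Notch list (25 tested), the ATV-TfR high bin had 7 higher and 12 lower, the ATV-CD98hc high bin 7 and 9. The higher members in ATV-TfR were Pdgfb, Tgfb2, Tgfbr2, Tgfbr3, Smad7, Hey1 and Epas1. Pdgfb is the ligand made by endothelium. Basement membrane genes went both ways, 3 higher (Hspg2, Agrn and Fn1) and 4 lower (Lama2, Lamb1, Bgn and Itga7) of 18 in ATV-TfR, counts near the background shares. Of 19 tested solute carriers, the ATV-TfR high bin had 7 higher and 10 lower, the ATV-CD98hc high bin 6 and 10. The glucose and lactate transporter genes Slc2a1 and Slc16a1 were among the higher, and the GABA and proline transporter genes Slc6a13 and Slc6a20a among the lower.

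Where endothelial RNA was little, these 4 lists held 2 calls in the ATV-TfR high bin, Tagln and Tgfbr1, and 1 in ATV-CD98hc, Slc1a3, all lower, where 2.41% and 0.746% of all genes were lower. Tgfbr1, a TGF-beta receptor, had 179 and 100.2 CPM in the ATV-TfR negative bin and 33.7 and 40.4 in the high bin, with no overlap (-1.92 ± 0.38, adjusted p = 0.003). In the same cells the summed microglial genes went from 2054 and 1639 CPM to 63.6 and 425, and 9 of 10 were lower; their part in the Tgfbr1 change was not tested. Neither it nor Tagln passed without ATV-TfR pool 1 (adjusted p = 0.62 and 0.075). Slc1a3, an astrocytic glutamate transporter gene, changed by -2.97 ± 0.63 in ATV-CD98hc (adjusted p = 0.016), on 1 high-bin library. Without Scrublet marks as well, edgeR called none of the 4 lists in either high bin. At an unadjusted p under 0.05 it then gave 1 basement membrane gene higher and 2 PDGF, TGF-beta and Notch and 2 contractile genes lower in ATV-TfR, and 1 PDGF, TGF-beta and Notch gene higher and 1 contractile gene and 3 solute carriers lower in ATV-CD98hc. Tgfbr1 changed by -0.69 ± 0.36 there (adjusted p = 1).

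Of the other lists, 4 of 15 iron genes were higher in the ATV-TfR high bin (Tfrc, Slc40a1, Ncoa4 and Mcoln1) and 3 lower (Trf, Steap4 and Fth1), the latter near the 17.2% of all genes. In the antibody traffic list of 24, the ATV-TfR high bin had 10 higher and 5 lower, the ATV-CD98hc high bin 9 and 3. Fcgr3 and Fcer1g, Fc receptor genes of microglia, were lower in both. Of 11 stress genes, Herpud1 was higher and Psat1, Phgdh and Hsp90aa1 lower in ATV-TfR, and Psat1 and Phgdh lower in ATV-CD98hc. The iron and stress counts, of so few genes, are not set apart from the background. Over all pericytes the higher genes of the antibody traffic list lay above the 12.0% and 9.75% of all genes. In pericytes with little endothelial RNA 2.41% of all genes were lower in ATV-TfR, and the share in ATV-CD98hc was that given above. In those with little endothelial RNA the calls among these 3 lists were Trf, Fth1, Fcgr3 and Phgdh, all lower in ATV-TfR, and none in ATV-CD98hc. Fth1 was lost without either ATV-TfR pool (adjusted p up to 0.97), Phgdh without pool 1 and Fcgr3 without pool 2 (adjusted p = 0.086 and 0.078), and without pool 1 Fcgr3 was not tested. There edgeR gave an unadjusted p under 0.05 to 2 iron genes, 1 antibody traffic gene and 2 stress genes. Trf and Phgdh are known from oligodendrocytes and astrocytes.

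The largest changes in the high bins are given for genes of at least 50 CPM whose bins did not overlap. In ATV-TfR the 10 highest ran from 10.20 for Slc38a5, an amino acid transporter of brain endothelium, to 6.46 for Gm9946, and in ATV-CD98hc from 10.10 for Rab11fip1 to 6.59 for Sgpp2. The 10 lowest held the oligodendrocyte gene Opalin (-9.82 and -9.91) and, in ATV-TfR, the microglial genes Siglech (-9.23) and Tmem119 (-7.78). Of the blood genes Hbb-bs and Hba-a1, which were among the 10 highest in ATV-TfR, 99.3% and 99.5% of the high-bin UMIs came from 1 barcode.

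Genes expressed highest in pericytes among the cell classes formed a wider set (1590 genes, 902 of them tested). They were chosen by their level in the negative bins, which are 1 side of each comparison, so their counts are a description. In the high bins 200 of them were lower in ATV-TfR and 173 in ATV-CD98hc (22.2% and 19.2%, against 17.2% and 13.1% of all genes). With little endothelial RNA 2.41% of all genes were lower in ATV-TfR, and the share in ATV-CD98hc was that given above. In pericytes with little endothelial RNA (786 tested), 1 was lower in ATV-TfR (Xylt2, a xylosyltransferase of proteoglycan synthesis, lost without either ATV-TfR pool or ATV-CD98hc pool 2, adjusted p up to 0.83) and none in ATV-CD98hc (19 higher and 11 lower at an unadjusted p under 0.05). Removing barcodes marked by Scrublet as well (747 tested) left none in either high bin by edgeR, where 0.483% and 0.229% of all genes were called, with 8 higher and 7 lower at an unadjusted p under 0.05 in ATV-TfR, and 11 and 17 in ATV-CD98hc. Over all pericytes the largest called fall among these genes was in Nrgn, -1.93 ± 0.29 in ATV-TfR and -2.33 ± 0.38 in ATV-CD98hc. The cell classes held no neurons, so whether Nrgn was higher in neurons was not tested.

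Inflammatory and immediate-early genes were counted in the same way, where 12.0% and 9.75% of all genes were higher in the high bins. Of 15 tested interferon and inflammation genes 11 were higher in the ATV-TfR high bin and 12 in the ATV-CD98hc high bin; with little endothelial RNA none was called in ATV-TfR (0 higher and 1 lower at an unadjusted p under 0.05) and 1 was in ATV-CD98hc (Vcam1, lost without ATV-CD98hc pool 1, adjusted p = 0.12). Of 13 tested immediate-early genes 7 were higher in each high bin. Where endothelial RNA was low 1 was called, Klf2 in ATV-TfR. Klf2, a flow-responsive transcription factor of endothelium, had 16.3 and 8.31 CPM in ATV-TfR negative-bin pericytes with little endothelial RNA and 67.4 and 56.6 in the high bin (2.27 ± 0.42, adjusted p = 0.0012). The bins did not overlap, and the call was lost without either ATV-TfR pool (adjusted p up to 0.088). The summed endothelial genes were also higher in these high-bin cells (2493 and 2491 CPM against 1266 and 1367), and their part in the Klf2 change was not tested. Endothelial cells held 1450.3 CPM of Klf2. A UMI of it was found in 3.33% of negative-bin pericytes with little endothelial RNA, 3.75% of microglia and 20.4% of smooth muscle cells. The pericyte share is near that of microglia in the negative bins, and the high bin was not compared in this way. Ndufa4, a subunit of cytochrome c oxidase that is related to the rule gene Ndufa4l2, was higher over all pericytes by 1.78 ± 0.24 in ATV-TfR and changed by -1.17 ± 0.31 (adjusted p = 0.036) in those with little endothelial RNA, the latter lost without either ATV-TfR pool (adjusted p up to 0.77).

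The low and medium bins differed from the negative bin in RNA of other glial cells. Of 10 astrocyte genes, 8 were higher in pericytes of the ATV-TfR low bin and 8 in the ATV-CD98hc low bin, and 8 in the ATV-TfR medium bin, where 6.26%, 6.44% and 9.06% of all genes were higher. In the ATV-CD98hc medium bin none was higher and 5 were lower, where 8.94% of all genes were lower, and their summed level was 8770 and 9061 CPM in the negative bin and 6187 and 5361 in the medium bin. None of the 10 was called there with little endothelial RNA (1 higher and 0 lower at an unadjusted p under 0.05). All 10 oligodendrocyte genes were lower in the low bins of both treatments, where 2.01% and 2.54% of all genes were lower. The 10 microglial genes went opposite ways: 10 were lower in the ATV-TfR low bin and 10 higher in the ATV-CD98hc low bin. The summed level of the microglial genes was 2011 and 1617 CPM in the ATV-TfR negative bin and 90.3 and 151 in the low bin. In ATV-CD98hc it was 218 and 313 CPM in the negative bin and 1431 and 1349 in the low bin. Microglia themselves held 27359.7 to 45553 CPM.

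C1qa, a complement gene of microglia, had 347 and 275 CPM in ATV-TfR negative-bin pericytes and 2.58 and 27.4 in the low bin (-4.39 ± 0.41, adjusted p = 1.1e-07), and in ATV-CD98hc 20.8 and 41.7 CPM in the negative bin and 267 and 269 in the low bin (3.14 ± 0.32, adjusted p = 4.5e-07). The pools did not overlap between bins in either treatment. Without barcodes marked by Scrublet and with little endothelial RNA the changes were -0.49 ± 0.88 and 2.47 ± 0.86 and neither passed (adjusted p = 1 and 0.14). Under that restriction the call counts of the low bins fell to 166 higher and 7 lower in ATV-TfR (2.11% and 0.0889%, in all 2.20% of 7875 genes) and 294 and 12 in ATV-CD98hc (3.73% and 0.152%, in all 3.89%). Scrublet had marked 12.6 and 8.17% of pericytes in the ATV-TfR negative bin and 17.4 and 18.1% of pericytes in the low bin.

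**Figure D4:**
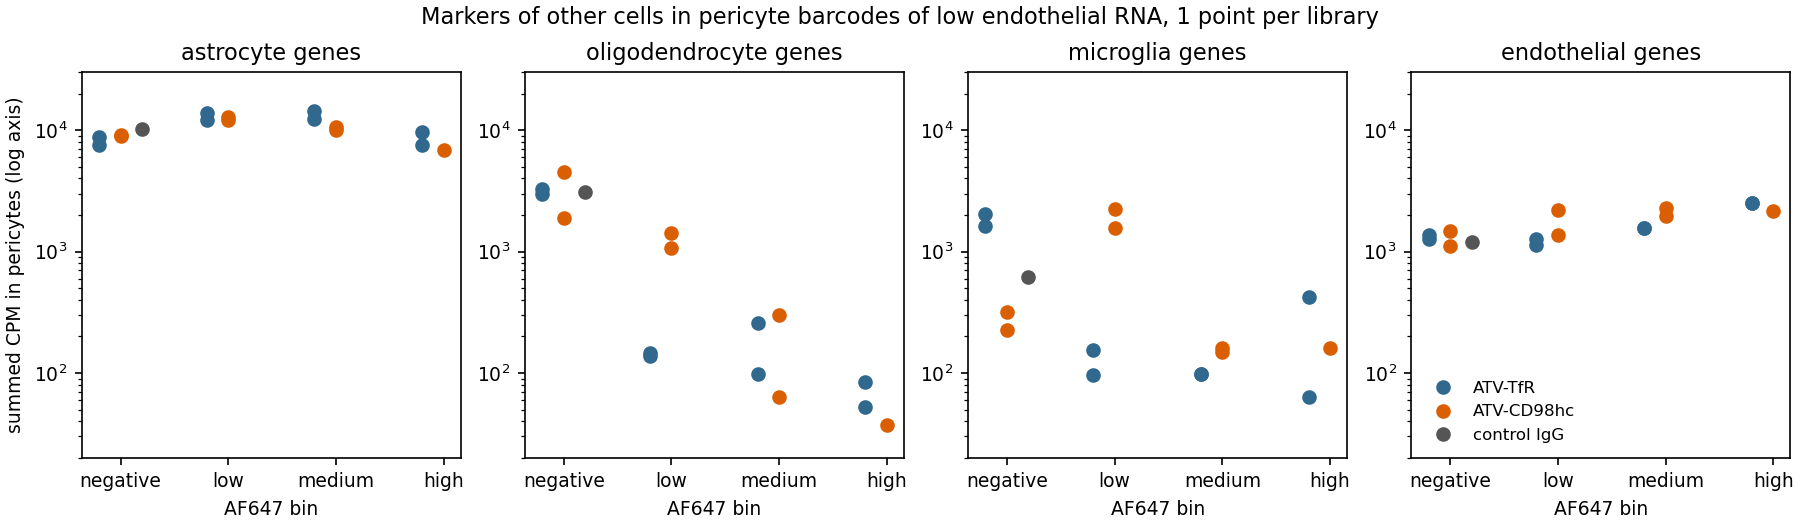
Summed CPM of astrocyte, oligodendrocyte, microglial and endothelial genes (log axis) in pericytes with little endothelial RNA, by bin, 1 point per library, coloured by treatment. Microglial RNA is high in the ATV-TfR negative bin and low in its low bin, and the reverse in ATV-CD98hc; astrocyte RNA is above the negative bin in the low bins.

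After both restrictions 7 astrocyte genes were higher in the ATV-TfR low bin, 8 in its medium bin, 8 in the ATV-CD98hc low bin and 4 in its medium bin. In the medium bins 2.48% and 0.648% of all genes were then higher. Vegfa, the endothelial growth factor, was higher in 3 of these bins over all pericytes and lower in the ATV-CD98hc medium bin. It had 27.1 and 29.6 CPM in the ATV-TfR negative bin, 165 and 178 in the low bin and 115 and 124 in the medium bin, with no overlap (2.61 ± 0.21 and 2.09 ± 0.20, adjusted p = 1.8e-08 and 3.4e-08). In the ATV-CD98hc low bin the change was 1.05 ± 0.22 (adjusted p = 0.0022). In the ATV-CD98hc medium bin Vegfa fell from 52.0 and 56.8 to 16.1 and 13.003 CPM (-1.89 ± 0.24, adjusted p = 1.7e-06), and the medium-bin changes of the ATVs differed by 3.98 ± 0.31 (adjusted p = 4.4e-08). After both restrictions it was 1.52 ± 0.42 (ATV-TfR low, adjusted p = 0.053), 2.14 ± 0.35 (ATV-TfR medium, adjusted p = 0.00018) and 2.40 ± 0.40 (ATV-CD98hc low, adjusted p = 0.00022). In the ATV-CD98hc medium bin it was then 0.15 ± 0.56, and the ATVs differed by 1.99 ± 0.63 (adjusted p = 1 for both). Ednrb, the second endothelin receptor, changed by 1.71 ± 0.25 in the ATV-TfR low bin and 1.03 ± 0.26 in the ATV-CD98hc low bin (adjusted p = 1.8e-05 and 0.01); without ATV-CD98hc pool 1 the latter did not pass (adjusted p = 0.19). The astrocytic glutamate transporter gene Slc1a2 changed by 2.60 ± 0.23 and 1.04 ± 0.22 (adjusted p = 3.3e-08 and 0.0027), the latter also lost without that pool (adjusted p = 0.062). In the negative bins astrocytes held 416 CPM of Vegfa and 457 of Ednrb, and pericytes 38.0 and 59.9. The part of astrocyte RNA in either change was not tested.

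In the ATV-CD98hc low bin, 10 of the 19 tested identity genes were lower over all pericytes, and in the ATV-TfR low bin 1 was (Mcam), where 2.54% and 2.01% of all genes were lower. In pericytes with little endothelial RNA, where 0.660% and 2.17% of all genes were lower, the counts were 1 (Rgs4, lost without either ATV-TfR pool, adjusted p up to 0.2) and 0 (2 lower at an unadjusted p under 0.05 in ATV-TfR), and without Scrublet marks as well 0 in both (3 and 0 lower at an unadjusted p under 0.05). The wider set of genes highest in pericytes was counted in the low bins as well. Over all pericytes 4 of 902 were lower in the ATV-TfR low bin (0.443%, against 2.01% of all genes) and 109 in the ATV-CD98hc low bin (12.1%, against 2.54%). With little endothelial RNA 2 of 786 were lower in ATV-TfR (0.254%, against 2.17% of all genes) and 16 in ATV-CD98hc (2.04%, against 0.660%). Without Scrublet marks as well, edgeR called none of 747 in ATV-TfR (1 higher and 15 lower at an unadjusted p under 0.05). In ATV-CD98hc it called 3, all lower (0.402%, against 0.152% of all genes). They were Sfrp2, a secreted modulator of Wnt signalling, Ednra, and Nrgn, a calmodulin-binding protein. They were picked from these calls after the values were seen. Sfrp2 had 55.7 and 77.5 CPM in ATV-CD98hc negative-bin pericytes so restricted and 14.95 and 8.88 in the low bin (-2.47 ± 0.57, adjusted p = 0.0079); each low-bin value rests on 2 UMIs. Ednra had 417 and 318 CPM in the negative bin and 187 and 164 in the low bin (-1.03 ± 0.24, adjusted p = 0.01). Nrgn had 62.0 and 87.2 CPM in the negative bin and 29.9 and 4.44 in the low bin, the latter 1 UMI (-2.31 ± 0.64, adjusted p = 0.037). Low-bin values lay below negative-bin values for all 3. Over all pericytes Nrgn did not pass without ATV-CD98hc pool 2 (adjusted p = 0.11), and with little endothelial RNA it changed by -0.60 without that pool (adjusted p = 0.77) and by -4.66 without pool 1 (adjusted p = 0.021). A UMI of it was found in 13.4% of negative-bin pericytes with little endothelial RNA, 5.89% of microglia and 16.2% of smooth muscle cells. With little endothelial RNA, Sfrp2 was lost without either ATV-CD98hc pool (adjusted p up to 0.2).

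In ATV-TfR, Ednra changed by -0.61 ± 0.22 in the low bin and did not pass (adjusted p = 0.11); with the pool as a block, which compares bins within the same animals, it passed (adjusted p = 0.018). Casq2, the calsequestrin of calcium stores, changed over all pericytes by -0.86 ± 0.22 after ATV-TfR and by -1.01 ± 0.21 after ATV-CD98hc (adjusted p = 0.012 and 0.0026), and by -0.65 ± 0.23 and -0.59 ± 0.23 after both restrictions (adjusted p = 0.25 and 0.24). Its ATV-TfR call was lost without either ATV-TfR pool (adjusted p up to 0.68). Pde10a, a phosphodiesterase of cyclic nucleotides, had 68.8 and 56.9 CPM in the ATV-TfR negative bin and 159.9 and 107 in the low bin. In ATV-CD98hc it had 61.6 and 68.2 CPM in the negative bin and 17.8 and 22.8 in the low bin. The bins lay in opposite order in the 2 treatments: 1.09 ± 0.27 (adjusted p = 0.0086) and -1.67 ± 0.38 (adjusted p = 0.0051). The ATV-TfR call was lost without either ATV-TfR pool (adjusted p up to 0.45). Astrocytes held 46.9 CPM of Pde10a in the negative bins, near the 64.4 CPM of pericytes.

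Whether the bin effect differed between treatments was tested as an interaction. It passed for 222 genes in the low bin (1.87% of 11892), 772 in the medium bin (6.49%) and 21 in the high bin (0.177%). With the pool as a block it passed for 372, 1155 and 84 genes. Without ATV-TfR pool 1 or 2 it passed for 43 and 65 (low) and 448 and 472 (medium), and without ATV-TfR pool 1 or either ATV-CD98hc pool for 6, 7 and 8 (high). The low-bin difference for Pde10a was 2.76 ± 0.46 (adjusted p = 0.0013), which did not pass without ATV-TfR pool 1 (adjusted p = 0.067), and that for C1qa -7.53 ± 0.52 (adjusted p = 3.6e-09). After both restrictions 2 genes passed in the low bin (Ptgds, prostaglandin D synthase, and Efemp1, a fibulin, both known in leptomeningeal cells; a UMI of Ptgds was found in 17.6% of negative-bin pericytes with little endothelial RNA and 17.3% of microglia, a share read as background) and 2 in the medium bin (Ttr and Enpp2, choroid plexus genes), 0.0254% of all genes in each. In the high bin 1 was higher and 13 lower (0.178%), with 1 ATV-CD98hc high-bin library. Pde10a gave 2.22 ± 0.54 (adjusted p = 0.21). Over all pericytes of the ATV-CD98hc low bin, 1 barcode held 43.5% of the Ptgds UMIs. A UMI of Efemp1 was found in 1.84% of negative-bin pericytes with little endothelial RNA.

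RNA of the receptors that the antibodies bind was measured in pericytes and beside them in endothelium. Tfrc in negative-bin pericytes with little endothelial RNA was 11.4 ± 3.10 CPM in ATV-TfR animals, 24.96 ± 13.3 in ATV-CD98hc animals (SD, n = 2 pools) and 40.8 in the control IgG pool. Endothelial cells of these bins held 57.4, 175 and 493 CPM, in the same order. Slc3a2 was 158 ± 13.02, 81.0 ± 30.4 and 155 CPM, lowest in the CD98hc knock-in. In the same order endothelial cells held 284 ± 2.34, 103 ± 27.7 and 455 CPM of it and smooth muscle cells 63.4 ± 2.28, 32.7 ± 5.82 and 83.3. The mean pericyte levels lay between those of these classes, and in ATV-CD98hc animals differed from the endothelial level by less than the SD.

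Between negative bins, Tfrc over all pericytes was lower in ATV-TfR than in control IgG by 3.18 ± 0.32 on the log2 scale (adjusted p = 1.3e-07), and by 1.75 ± 0.36 with little endothelial RNA (adjusted p = 0.0079). The control IgG side is 1 library, whose spread is taken from the other groups, and 18.4% of its pericytes lay at or above the endothelial limit. Against ATV-CD98hc the difference was -1.27 ± 0.35 (adjusted p = 0.067, and 0.02 with the pool as a block). The block takes differences between the pools of a treatment out of the spread. Pools are the replicates when treatments are compared, so the block's p-values leave out variation that this comparison needs. Slc3a2 differed between ATV-TfR and ATV-CD98hc by 0.94 ± 0.26 (adjusted p = 0.072; 0.0014 with the block) and by 1.00 ± 0.23 with little endothelial RNA (adjusted p = 0.024). The latter was 0.59 to 1.38 with 1 pool left out and did not pass without either ATV-TfR pool or ATV-CD98hc pool 1 (adjusted p up to 0.39). Microglia showed the same order for Slc3a2, 214, 116 and 179.9 CPM in ATV-TfR, ATV-CD98hc and control IgG. For Tfrc microglia held 6.81, 10.1 and 26.6 CPM and smooth muscle cells 17.7, 30.2 and 58.0, also in the order of pericytes. The knock-in alleles carry human sequence that a mouse reference does not hold, so reads from it could be missed; their part in these differences was not tested.

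From the negative to the high bin Tfrc rose over all pericytes by 3.40 ± 0.28 in ATV-TfR and 3.64 ± 0.29 in ATV-CD98hc (adjusted p = 6.2e-10 for both). In pericytes with little endothelial RNA the changes were 0.21 ± 0.67 and 0.71 ± 0.73 and did not pass (adjusted p = 0.98 and 0.82). Slc3a2 rose by 1.45 ± 0.23 and 1.41 ± 0.26 over all pericytes (adjusted p = 2.5e-05 and 0.00023) and changed by 0.01 ± 0.26 and 0.57 ± 0.43 with little endothelial RNA (adjusted p = 1 and 0.73). Slc7a5, its light chain partner in endothelium, rose over all pericytes by 6.15 ± 0.30 and 5.47 ± 0.32 (adjusted p = 1e-13 and 6.2e-12). Slc7a5 changed with little endothelial RNA by 2.45 ± 0.64 in ATV-TfR (adjusted p = 0.033), a call lost without either ATV-TfR pool (adjusted p up to 0.49). In the same cells the summed 20 endothelial genes stood at 1266 and 1367 CPM in the negative bin and 2493 and 2491 in the high bin. Of 17 tested, 9 were higher (Ptprb by 5.85 ± 0.77, adjusted p = 2.6e-05), where 0.270% of all genes were higher. The part of these endothelial genes in the Slc7a5 change was not tested. Fcgrt, the heavy chain of the neonatal Fc receptor that recycles IgG, had 243 and 238 CPM in the ATV-TfR negative bin and 486 and 502 in the high bin (1.11 ± 0.22, adjusted p = 0.00029), with no overlap; the call was lost without either ATV-TfR pool (adjusted p up to 0.056). With little endothelial RNA it changed by 0.20 ± 0.21 (adjusted p = 0.91).

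**Figure D5:**
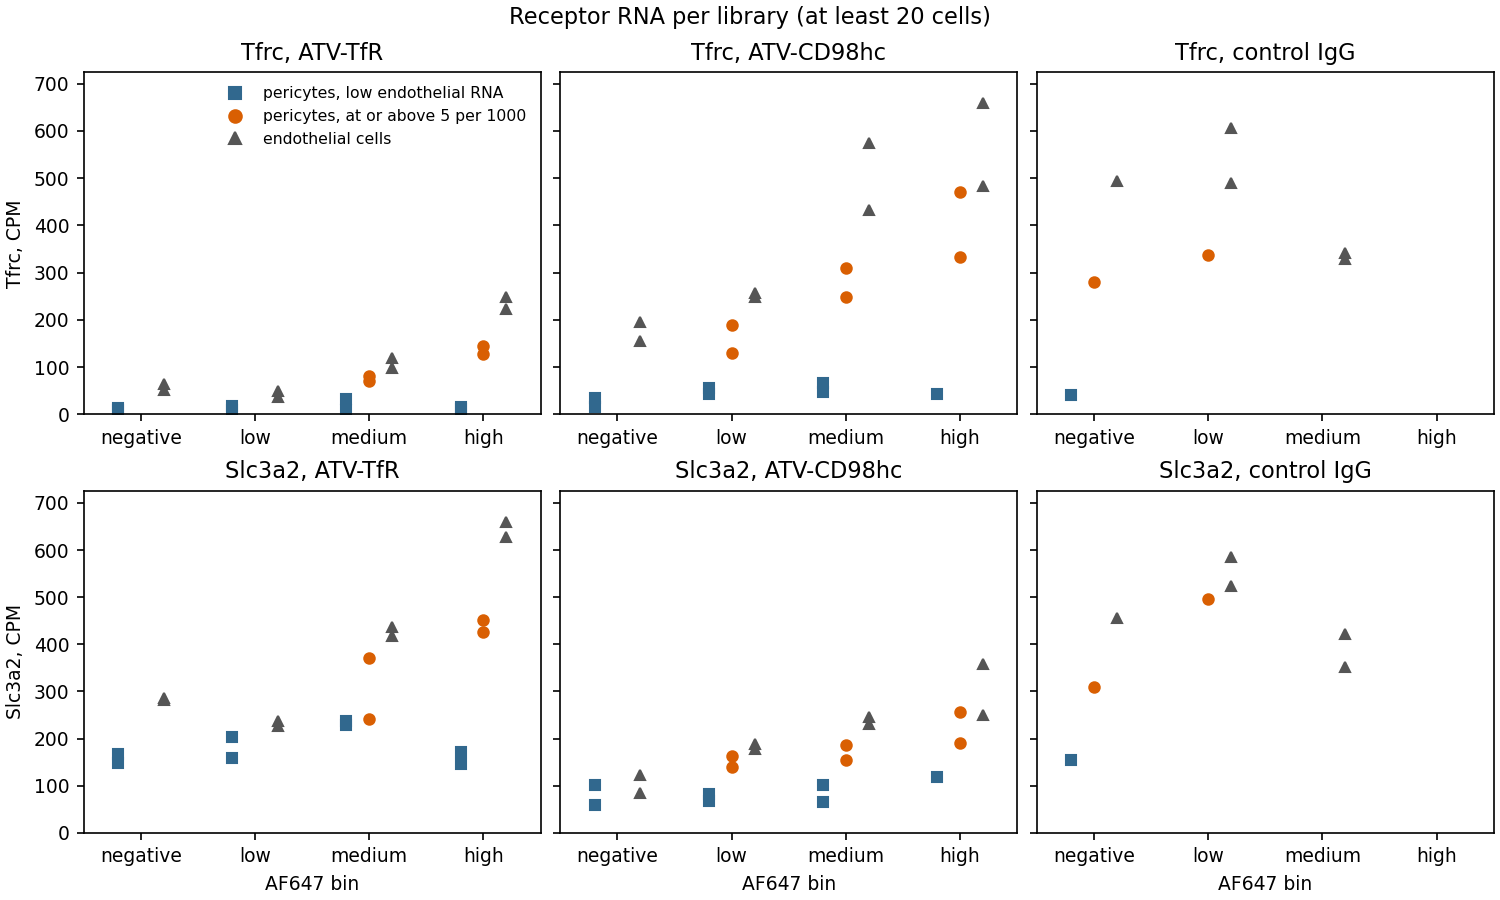
Tfrc (upper row) and Slc3a2 (lower row) in CPM by bin and treatment, in pericytes with little endothelial RNA (blue squares), pericytes at or above the limit (orange circles) and endothelial cells (grey triangles), 1 point per library with at least 20 cells. Pericytes with little endothelial RNA lie lowest for Tfrc, and those at or above the limit lie between them and endothelial cells in most libraries.

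Pericytes of the negative bins, which carried the least antibody signal, were compared between treatments. Between ATV-TfR and ATV-CD98hc 107 genes were higher and 75 lower (1.53%), between ATV-TfR and control IgG 64 and 557 (5.22%), and between ATV-CD98hc and control IgG 0 and 252 (2.12%). The last 2 share the 1 control IgG library. Of the last, edgeR gave 233 higher and 698 lower at an unadjusted p under 0.05, and DESeq2 called 3 higher and 226 lower. With the pool as a block the first gave 362 calls in place of 182, the second 206 in place of 621 and the third 159 in place of 252. The block leaves the variation between pools out of these comparisons of treatments. Without ATV-TfR pool 1 or 2 or ATV-CD98hc pool 1 the first gave 41, 118 and 116. Without ATV-TfR pool 1 or either ATV-CD98hc pool the second gave 257, 1152 and 1154, and without ATV-CD98hc pool 1 the third gave 515. By direction the second then held 302 higher without either ATV-CD98hc pool in place of 64, and the third 180 higher and 335 lower in place of 0 and 252. All 10 microglial genes were higher in ATV-TfR than in ATV-CD98hc (median 3.29), where 0.900% of all genes were higher. In each ATV 18 of 20 endothelial genes were lower than in control IgG, where 4.68% (ATV-TfR) and 2.12% (ATV-CD98hc) of all genes were. Without Scrublet marks and with little endothelial RNA, edgeR called 3 genes between the ATVs (0.0381%), none between ATV-TfR and control IgG (166 higher and 103 lower at an unadjusted p under 0.05), and 3 between ATV-CD98hc and control IgG.

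The 3 genes were in both cases Ttr and Enpp2, the transthyretin and autotaxin genes of choroid plexus, and Thsd7a, a membrane protein. Both comparisons share the ATV-CD98hc libraries. Thsd7a had 115 and 92.2 CPM in ATV-TfR, 42.1 and 25.8 in ATV-CD98hc and 143 in control IgG, a difference of 1.57 ± 0.29 between the ATVs (adjusted p = 0.023). With Scrublet marks kept, the call was lost without ATV-TfR pool 1 or ATV-CD98hc pool 2 (adjusted p = 0.54 and 0.068). The ATV-CD98hc pools lay lowest. A UMI of it was found in 18.1% of negative-bin pericytes with little endothelial RNA and 1.42% of microglia, and in 29.6% of smooth muscle cells. A UMI of Ttr was found in 47.2% and 48.0%, shares read as background.

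In control IgG the low bin could be compared through 2 libraries of 21 and 28 pericytes, 57.1 and 78.6% of them at or above the endothelial limit, against 1 negative-bin library. There 199 genes were higher and 300 lower than in the negative bin (4.20%); without an ATV-CD98hc pool, 786 and 790 genes were called, and without control IgG pool 1 283. Without Scrublet doublets 47 were higher and 7 lower, and DESeq2 called 299 higher and 211 lower, so that the larger direction turned. Of the 10 astrocyte genes 9 were lower, where 2.52% of all genes were. Of the same list 8 were higher in the low bin of each ATV; the difference from control IgG was not tested. Too few of these pericytes had little endothelial RNA for a fit.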

How the data were processed

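Brain cells of 23 libraries were measured by droplet single-cell RNA-seq. The deposited values are raw UMI counts per gene and barcode (32285 genes, 265025 barcodes), made by the authors with Cell Ranger 7.1.0, per the file headers; the submitters' processing notes also name Seurat 4 and 5 and the mm10 (GRCm38) build. No normalization was applied by the authors to these counts. Whether barcodes had been selected beyond cell calling is not given in the sources used here.

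The members and gene lists were chosen with earlier results of these data known. Counts were summed over the pericytes of each library with at least 20 of them and tested with edgeR 4.0.16 (quasi-likelihood, TMM factors, filterByExpr, 1 mean per group, all treatments in 1 fit) in R 4.3.3 with limma 3.58.1; CPM were computed from the summed counts. Numbers of pericytes were tested with edgeR with the log of the filtered barcodes as offset. Shares over the bins were tested with an exact permutation test, whose smallest p is 0.00079 for 8 libraries and 0.0016 for 7. Replicates were pools of 2 mice. Bins of a pool share animals, so pool numbers pair the bins of a treatment: deviations correlated from -0.015 to 0.24 in ATV-TfR and 0.016 to 0.73 in ATV-CD98hc over 4591 genes. The fit without the pool block was the main one. In comparisons between treatments the block takes differences between pools, the replicates, out of the spread, so its p-values there leave out that variation. P-values measure the spread between 2 pools per group; groups of 1 library (the control IgG negative bin, and the ATV-CD98hc high bin with little endothelial RNA) are assumed to vary like the others.

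Scrublet (scanpy 1.11.5) scored doublets per library with its automatic threshold. In 8 libraries, where that marked under 0.5% or over 25% of barcodes, the top scores beyond percentile 94 were marked. These were the ATV-TfR high-bin libraries, the ATV-CD98hc medium-bin and high-bin libraries, and pool 2 of the ATV-CD98hc and control IgG low bins. All negative-bin libraries used the automatic threshold, so the marking rule differs between the sides of the high-bin comparisons. The limit on endothelial RNA (under 5 UMIs of 20 genes per 1000) and its combination with Scrublet were chosen after seeing the data. Other alternatives were DESeq2 1.42.0, RLE factors, count filters, membership, minimum cells, depth thinned to 1500 UMIs, other denominators, the pool block and leaving out each pool. Members of the fixed lists could be named, with up to 10 genes in each direction of largest change among called genes of at least 50 CPM whose groups did not overlap, over all genes and among genes highest in pericytes. The symbol Ddit3 names 2 gene rows and was left out. Some genes that met the naming rule are not reported here. On simulated data for the ATV-TfR high and negative bins (11892 genes), 24 of 100 genes changed by log2 size 1 and 96 of 100 changed by size 2 were called, with 3 false calls. The simulation gave all genes the same dispersion and the bins no shared pool effect, and changed only genes of higher counts. Its rates may thus differ from those in the real data. Promoter windows came from a RefSeq table of GRCm38.p6, in which 5 of the 8 rule genes had an entry.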

Additional observations from a re-analysis of the deposited data

Results flagged for a closer look

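The change from the negative bin differed between ATV-TfR and ATV-CD98hc, by an interaction term in edgeR's quasi-likelihood fit, for 222 genes in the low bin, 772 in the medium bin and 21 in the high bin. In the low bin the difference (ATV-TfR minus ATV-CD98hc, log2) was 2.76 ± 0.46 for Pde10a (adjusted p = 0.0013) and 1.97 ± 0.49 for Sfrp2 (adjusted p = 0.032). Both were highest in pericytes among the cell classes compared, which held no neurons. The Sfrp2 difference passed in 2 of 6 fits that left out a pool. It was 1.57 ± 0.30 for Vegfa (adjusted p = 0.0048), which turned direction without Scrublet doublets. It was -7.53 ± 0.52 for the microglial gene C1qa (adjusted p = 3.6e-09), -5.53 ± 1.06 for Ptgds (adjusted p = 0.0048) and -4.28 ± 0.84 for Efemp1 (adjusted p = 0.0053). In pericytes with little endothelial RNA and no Scrublet mark, Ptgds and Efemp1 still passed (adjusted p = 0.00014 and 0.046). Pde10a, Sfrp2, Vegfa and C1qa did not (adjusted p = 0.21, 0.2, 1 and 1). UMIs of Ptgds were found in 17.6% of negative-bin pericytes with little endothelial RNA and 17.3% of microglia, and of Efemp1 in 1.84% and 0.383%. Over all pericytes of the ATV-CD98hc low bin, 1 barcode held 43.5% of the Ptgds UMIs.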

How the results depend on the processing

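Under DESeq2, RLE factors, thinning to 1500 UMIs and a minimum of 10 or 50 pericytes per library, no test on number or trend changed its side and no count of calls in both directions together moved by over 1.5 times. By direction, DESeq2 gave 153 lower in place of 239 (ATV-TfR low), 40 higher in place of 64 (negative bin, ATV-TfR against control IgG), 299 higher in place of 199 (control IgG low) and 3 in place of 0 (negative bin, ATV-CD98hc against control IgG, 1 with 50 pericytes). Of 88 results on named genes 83 kept their call under DESeq2 and 87 with RLE factors. Counts are genes called, and the cause of each change was not tested. With membership that asked for 3 times more pericyte than other UMIs they were 833 (ATV-TfR medium), 1441 (high), 472, 687 and 921 (ATV-CD98hc low, medium, high), 498 and 11 (interaction, medium, high), 252 and 9 (negative bins, each ATV against control IgG). Without Scrublet doublets they were 298 (ATV-TfR low), 54 (control IgG low), 4, 190 and 0 (interactions), and 0 and 409 (negative bin, ATV-TfR against ATV-CD98hc and control IgG). With little endothelial RNA, chosen after seeing the data, they were 814 and 248 (ATV-TfR medium, high), 472, 60 and 95 (ATV-CD98hc), 103 and 203 (interactions, low, medium), and 185 and 1 (negative bins against control IgG). Without Scrublet doublets as well they were 173, 204 and 38 (ATV-TfR), 306, 52 and 18 (ATV-CD98hc), 2 and 2 (interactions), and 3, 0 and 3 (negative bins). With no filter on low counts they were 397 and 111 (interactions, low, high) and 353 (negative bins, ATVs), and with a filter at 50 CPM, which tests fewer genes, 2247 (ATV-TfR high), 9 and 87. With the pool as a replicate block they were 372 and 84 (interactions) and 362, 206 and 159 (negative bins, where the block leaves out the variation between pools). With all bins of a pool summed the treatment differences numbered 27, 0 and 1.

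Leaving out 1 pool at a time gave 407 to 1203, 706 to 1846 and 1494 to 4495 genes (ATV-TfR low, medium, high), 484 to 1068 (ATV-CD98hc low), 283 to 790 (control IgG low), 43 to 235, 448 to 782 and 6 to 22 (interactions) and 41 to 264, 257 to 1154 and 216 to 515 (negative bins). For pericyte number it gave 0.58 to 1.58 (high bin, ATV-TfR minus ATV-CD98hc) and -1.12 to -0.36 (medium bin). Where a pool was left out of a group of 2, the lone sample is assumed to vary like the other groups.

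With endothelial cells out of the denominator, pericyte number changed by 1.91 (ATV-TfR high), 0.79 and 1.70 (ATV-CD98hc medium, high), and the ATVs differed by -3.17 (medium, passed) and 0.84 (high, not passed). With little endothelial RNA on that denominator the values were -0.71 and -0.65 (high bins, not passed), -1.55 (medium, passed) and 0.58 (high, not passed). On all barcodes the high-bin difference was 0.72 with little endothelial RNA and 0.73 without Scrublet doublets as well. With the replicate block the ATVs differed by 0.65 (negative) and -0.74 (medium), and both passed. In such comparisons of treatments the block leaves out the variation between pools. The block changed no other call on number. Of the 88 gene results it gained 10 calls and lost 3, in Ednra, Fth1 and Tgfbr1 (low bins) and Tfrc, Slc3a2, C1qa, Ttr, Enpp2 and Thsd7a (negative bins), and it changed no other. The trend passed with little endothelial RNA (-0.91 and -0.97 per bin; -0.12 and -0.0055, not passed, on that denominator), and in control IgG with at least 3 of the 8 genes (-1.03), the other denominator (-1.25) and without Scrublet doublets (-1.11).

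With little endothelial RNA, log2 changes of the high bins that turned direction were, in ATV-TfR, Pdgfrb 0.16, Notch3 0.13, Cspg4 0.26, P2ry14 0.13, Ednra 0.093, Slc38a11 0.092, Casq2 0.46, Ndufa4 -1.17, and in ATV-CD98hc, Pdgfrb 0.074, Notch3 0.0072, Cspg4 0.22, P2ry14 0.24, Ndufa4 -0.29, Vcam1 2.27. Without Scrublet doublets as well, log2 changes of the high bins that turned direction were, in ATV-TfR, Pdgfrb 0.0057, Cspg4 0.094, Casq2 0.31, Ndufa4 -0.95, and in ATV-CD98hc, Cspg4 0.081, P2ry14 0.060, Fcgrt -0.092, Vcam1 3.94. In the ATV-CD98hc medium bin Slc1a2 turned to 0.13 and, without Scrublet doublets as well, 1.31, where Vegfa turned to 0.15 and, in the low bin, Trf to 0.25. The low-bin interaction of Vegfa turned to -0.73 without Scrublet doublets and -0.88 with little endothelial RNA as well. Tfrc, ATV-CD98hc minus control IgG, turned to 0.51 with all bins of a pool summed.

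Receptor RNA in CPM over the bins of a pool moved by more than the spread between pools. It was, with stricter membership Tfrc 29.6 (ATV-TfR), 82.2 (ATV-CD98hc), 42.1 (control IgG), Slc3a2 205 (ATV-TfR), 101 (ATV-CD98hc), 112 (control IgG), Slc7a5 81.3 (ATV-TfR), 137 (ATV-CD98hc), Fcgrt 291 (ATV-TfR). It was, with the negative bin alone Tfrc 12.4 (ATV-TfR), 28.0 (ATV-CD98hc), Slc3a2 161 (ATV-TfR), 83.8 (ATV-CD98hc), 202 (control IgG), Slc7a5 8.50 (ATV-TfR), 15.1 (ATV-CD98hc), Fcgrt 241 (ATV-TfR), 236 (ATV-CD98hc). It was, with little endothelial RNA Tfrc 12.99 (ATV-TfR), 35.8 (ATV-CD98hc), 46.8 (control IgG), Slc3a2 168 (ATV-TfR), 79.0 (ATV-CD98hc), 76.3 (control IgG), Slc7a5 8.96 (ATV-TfR), 12.9 (ATV-CD98hc), 5.38 (control IgG), Fcgrt 237 (ATV-TfR), 217 (ATV-CD98hc). The summed endothelial list fell to 5643 (ATV-TfR) and 7297 CPM (ATV-CD98hc) with stricter membership. Depth limits the positive bins, where 0 to 6 pericytes in each control IgG medium and high library allowed no expression fit.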

Other observations

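Pericytes could be split by mouse sex within each pool, since each pool held 1 female and 1 male: barcodes with Xist but no Y-linked UMI were counted as female and the reverse as male, and 25.3% of pericytes had neither. In the ATV-TfR negative bin, pericytes with little endothelial RNA were 12.1% of female and 10.6% of male barcodes in pool 1 and 11.5% and 6.71% in pool 2. In the ATV-CD98hc negative bin they were 5.57% and 4.20% in pool 1 and 6.44% and 5.75% in pool 2. Among barcodes with neither or both kinds of UMI the share was higher, 13.4% and 13.6% in the ATV-TfR pools and 8.94% and 15.6% in the ATV-CD98hc pools. The values of each sex are thus of 1 mouse and cover only the barcodes that could be assigned.

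Single barcodes carried the UMIs of some genes with large changes. In the ATV-TfR medium bin 99.6% of S100a9 UMIs in pericytes came from 1 barcode, and in the ATV-TfR high bin 99.3% of Hbb-bs UMIs did. S100a9 is a neutrophil gene and Hbb-bs a globin of red blood cells. Ngp, a neutrophil granule gene, passed in the ATV-TfR medium bin by edgeR among singlets of low endothelial RNA (adjusted p = 1.7e-05). With Scrublet marks kept its log2 change was 10.5 ± 1.43. A UMI of it was found in 1 of 3037 negative-bin pericytes with little endothelial RNA. Whether the medium-bin call rests on 1 barcode was not tested.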
